A study of Mus musculus with 10 samples.

Results

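Titin (*Ttn*), its Z-disc cap telethonin (*Tcap*) and the 3 muscle ankyrin repeat genes *Ankrd1*, *Ankrd2* and *Ankrd23* were followed in the ventricles of mice with dilated cardiomyopathy. They were chosen by name as a stretch-sensing group of the sarcomere. These 5 genes and the gene lists below were chosen with earlier results of these data known. Their counts set against all genes are therefore descriptions, not independent evidence. The 5 genes were matched by symbol among 57185 genes with counts, and all 5 were among the 13453 genes tested, for which 6 or more of the 10 mice had to exceed 10 counts. Poly(A)-selected RNA from the apical ventricle was sequenced from 5 MLPKO and 5 MLPKO-cRADKO mice at 16 weeks of age, with 1 library per mouse. All 10 mice were labelled as knockouts of muscle LIM protein (MLP), whose gene is *Csrp3*, carried floxed alleles of *Rrad*, the gene of RAD, which restrains the L-type calcium channel, and received 100 mg per kg of tamoxifen at 10 weeks of age. The MLPKO-cRADKO mice also carried MYH6-MerCreMer, a tamoxifen-inducible Cre driven by a cardiomyocyte promoter, so that tamoxifen induced RAD deletion in them. Harvest of both groups is given as 1 month after tamoxifen, which the stated ages of 10 and 16 weeks do not match. The Cre transgene was present in that group alone, so RAD loss and the presence of Cre cannot be told apart, and no healthy heart was analysed here.

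Titin is a giant protein that spans from the Z-disc to the M-band of the sarcomere and sets much of the passive stiffness of heart muscle through its elastic I-band. Telethonin crosslinks the ends of titin molecules at the Z-disc, where muscle LIM protein is also found. The ankyrin repeat proteins CARP (*Ankrd1*), Arpp (*Ankrd2*) and DARP (*Ankrd23*) bind the N2A region of titin in the I-band and can also enter the nucleus, and *Ankrd1* is a well-known gene of stretched and failing heart muscle. *Ankrd2* is known mainly from slow skeletal muscle.

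On the GRCm39 build, *Ankrd1* (ENSMUSG00000024803) lay on chromosome 19 from 36089352 to 36097506 on the minus strand and *Ankrd2* (ENSMUSG00000025172) on the same chromosome from 42024274 to 42033552 on the plus strand. *Ankrd23* (ENSMUSG00000067653) lay on chromosome 1 from 36563865 to 36575964, *Ttn* (ENSMUSG00000051747) on chromosome 2 from 76534136 to 76812891, both on the minus strand, and *Tcap* (ENSMUSG00000007877) on chromosome 11 from 98274637 to 98275779 on the plus strand. The 250 bases before the start sites of *Ankrd1* and *Ankrd2* are shown because these were the members that passed the test between genotypes. Each is written 5′ to 3′ on the strand of its gene, and capitals mark the E-box CAGCTG, the letters bound by many basic helix-loop-helix factors. The *Ankrd1* window is chr19:36097507-36097756 (minus strand) and the *Ankrd2* window is chr19:42024024-42024273 (plus strand).
*Ankrd1*: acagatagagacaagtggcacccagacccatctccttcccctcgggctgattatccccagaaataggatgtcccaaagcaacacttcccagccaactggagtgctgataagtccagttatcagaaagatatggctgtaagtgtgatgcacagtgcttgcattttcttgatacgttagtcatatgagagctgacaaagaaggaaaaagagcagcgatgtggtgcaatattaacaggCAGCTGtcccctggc
*Ankrd2*: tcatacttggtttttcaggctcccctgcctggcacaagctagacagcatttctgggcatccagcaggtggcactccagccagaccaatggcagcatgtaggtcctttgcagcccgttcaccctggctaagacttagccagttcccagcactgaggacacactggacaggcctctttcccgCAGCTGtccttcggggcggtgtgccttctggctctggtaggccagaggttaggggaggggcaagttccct

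Both windows held these letters once, 15 to 10 bases before the start in *Ankrd1* and 70 to 65 bases before it in *Ankrd2*. CAGCTG occurred in 11.3% of 13416 windows of the same length before the genes tested, on either strand. The TEAD letters CATTCC occurred in 11.7% of these windows and stood in those of *Ankrd23* (33 to 28 bases before the start) and *Ttn* (81 to 76 bases before it). The GATA letters AGATAA occurred in 7.25% of windows, the CArG box in 1.13% and the MEF2 motif in 0.514%. None of these letters was found in the windows of the 5 genes. GATA was searched as AGATAA alone, on either strand. Related letters, such as the TGATAA in the *Ankrd1* window above, were therefore not counted. These are letter matches, and no binding was measured.

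Total counts per library ranged from 33457406 to 49965101 with a median of 43738141. Values below are normalized counts, which are counts scaled to a common library size by TMM factors, unless another scale is named. The targeted gene *Rrad* ranged from 5774 to 11644 in MLPKO and from 5562 to 8361 in MLPKO-cRADKO (log2 fold change -0.38, SE 0.197, edgeR adjusted p = 0.29). *Csrp3* ranged from 41726 to 134796 and from 28553 to 48663, although all 10 mice were labelled as knockouts of it. A count over a whole gene does not show which exons were lost, so neither gene checked the labels. The cardiomyocyte markers were abundant in every library, and in ventricular tissue as a whole fewer cells of a type and less RNA per cell cannot be told apart.

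*Ankrd1*, *Ankrd2*, *Ankrd23*, *Ttn* and *Tcap* all had lower mean counts in MLPKO-cRADKO than in MLPKO, and the size of the difference varied widely among them. *Ankrd1* and *Ankrd2* passed the test over all genes (edgeR quasi-likelihood test with Benjamini-Hochberg adjustment, adjusted p under 0.05), whereas *Ankrd23*, *Ttn* and *Tcap* did not. Of all genes tested, 1.8% were called lower by the same rule and 2.74% in either direction. The 5 genes each had an unadjusted edgeR p under 0.05, against 11.5% of genes that were lower at that level. DESeq2 called 2 of the 5 lower (*Ankrd1* and *Ankrd23*), against 5.84% of all genes, and gave *Ankrd2* no adjusted p. The study had itself singled out *Ankrd1* and *Ankrd2* from these samples, so their values here are not independent evidence of their direction.

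*Ankrd1* was the most abundant ankyrin repeat gene. In the 5 MLPKO mice it had normalized counts of 167009, 284127, 113158, 97623 and 221941 (mice 1 to 5), and in the 5 MLPKO-cRADKO mice 106894, 82729, 57471, 70795 and 49301. MLPKO mice 2 and 5 were the highest, and 4 of the 5 MLPKO-cRADKO mice lay below every MLPKO mouse. MLPKO-cRADKO mouse 1 exceeded MLPKO mouse 4, so the groups overlapped. The MLPKO-cRADKO mean was 41.5% of the MLPKO mean, and *Ankrd1* fell by 1.27 on the log2 scale (SE 0.295, edgeR adjusted p = 0.0463). With 1 mouse left out *Ankrd1* passed the threshold in 3 of 10 fits (without MLPKO mouse 3, MLPKO mouse 4 or MLPKO-cRADKO mouse 1), with log2 fold changes from -1.44 to -1.03 and edgeR adjusted p from 0.0198 to 0.111. With limma-voom the adjusted p was 0.0507.

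*Ankrd2* was lower in every MLPKO-cRADKO mouse than in any MLPKO mouse. Its normalized counts were 276, 7719, 397, 170 and 131 in MLPKO mice 1 to 5 and 76.7, 10.8, 33.9, 28.5 and 5.6 in MLPKO-cRADKO mice 1 to 5. MLPKO mouse 2 stood far above the other MLPKO mice, which ranged from 131 to 397, and the median was 276 in MLPKO and 28.5 in MLPKO-cRADKO. *Ankrd2* fell by 5.87 on the log2 scale (SE 1.38, edgeR adjusted p = 0.0475). With MLPKO mouse 2 left out this value became -3.02 (edgeR adjusted p = 0.0251). Without MLPKO mouse 4 it also passed the threshold, and without any one of the other 8 mice it did not (adjusted p up to 0.115). limma-voom gave a log2 fold change of -4.27 with an adjusted p of 0.257.

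The raw counts behind *Ankrd2* were 144 to 5892 in MLPKO and 6 to 62 in MLPKO-cRADKO. Small counts were mostly even in all libraries, as 73.7% to 80.3% of the values from 1 to 20 were even numbers against 51% to 56.5% of those above 1000. When all counts were halved, *Ankrd2* had a log2 fold change of -5.87 and an edgeR adjusted p of 0.0526.

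*Ankrd2* is a gene of skeletal muscle, so skeletal markers were read beside it. Of the 10 fast skeletal markers, *Myh4* and *Myog* were at 0 in all libraries and *Myh1* had 3 or fewer counts in each. The summed normalized count of the 10 ranged from 1524 to 4356 in MLPKO and from 1913 to 4041 in MLPKO-cRADKO, and 4356 was the value of MLPKO mouse 2. Most of that sum came from *Myl1*, a fast skeletal myosin light chain, with a mean of 3104 in MLPKO and 2458 in MLPKO-cRADKO. The sum of the 3 slow skeletal markers was 2792 to 3698 in MLPKO and 2478 to 3230 in MLPKO-cRADKO, and MLPKO mouse 2 had the lowest MLPKO value. *Tnnt1*, the slow skeletal troponin T, fell by 0.91 on the log2 scale (SE 0.164, edgeR adjusted p = 0.0226). The part of these markers in the *Ankrd2* result was not tested.

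*Ankrd23* had normalized counts of 1409, 2152, 1433, 955 and 1915 in MLPKO mice 1 to 5 and 1100, 1046, 1005, 906 and 797 in MLPKO-cRADKO mice 1 to 5. The MLPKO-cRADKO mice were close to each other, whereas MLPKO mice 2 and 5 were high and MLPKO mouse 4 lay among the MLPKO-cRADKO mice. Between genotypes *Ankrd23* differed by -0.70 on the log2 scale (SE 0.184, edgeR adjusted p = 0.0623), which missed the threshold. DESeq2 gave the same -0.70 with an adjusted p of 0.00525. Without MLPKO mouse 4 the edgeR log2 fold change was -0.83 with an adjusted p of 0.0136, and without each of the other 9 mice it was not called.

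**Figure D1:**
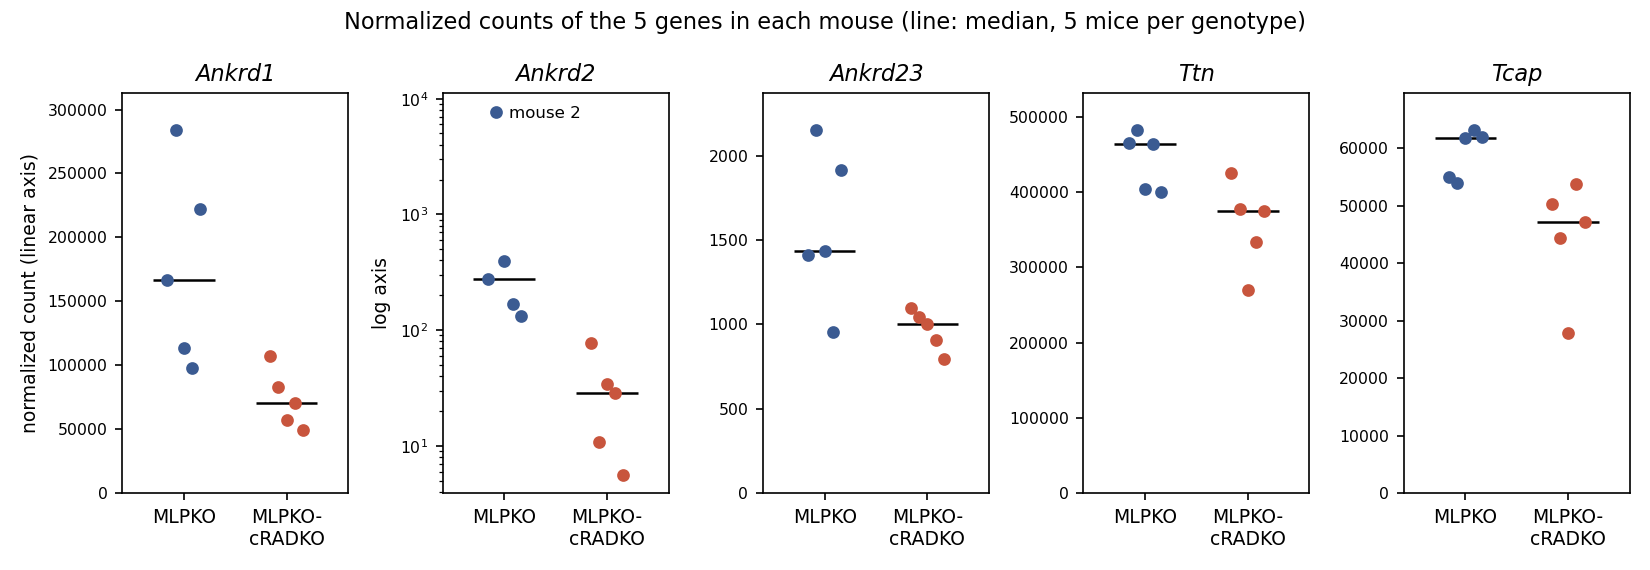
Normalized counts (vertical axes, linear except for *Ankrd2*, which is on a log axis) of the 5 genes in each of 5 MLPKO and 5 MLPKO-cRADKO mice, with 1 point per mouse and a line at the median. The groups do not overlap for *Ankrd2* and *Tcap*, and MLPKO mouse 2 is far above the other mice for *Ankrd2* at 7719.

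*Ttn* had normalized counts of 464785, 482780, 404526, 463405 and 400113 in MLPKO mice 1 to 5 and of 425447, 378220, 270013, 333390 and 374311 in MLPKO-cRADKO mice 1 to 5. MLPKO-cRADKO mouse 1 lay within the MLPKO range and the other 4 lay below it, with mouse 3 the lowest. Titin transcripts took 1.04% ± 0.0924 (SD, n = 5) of all counts of a library in MLPKO and 0.869% ± 0.123 (SD, n = 5) in MLPKO-cRADKO. *Ttn* differed by -0.31 on the log2 scale (SE 0.115, edgeR adjusted p = 0.139; DESeq2 adjusted p = 0.0595), and no fit with a mouse left out called it. Counts per gene do not separate the spliced forms of titin, which differ in stiffness.

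*Tcap* had normalized counts of 55058, 54034, 61737, 63209 and 61956 in MLPKO mice 1 to 5 and 50333, 44361, 27897, 53703 and 47239 in MLPKO-cRADKO mice 1 to 5. Every MLPKO-cRADKO mouse lay below every MLPKO mouse, by a narrow margin for MLPKO-cRADKO mouse 4, and mouse 3 was well below the rest. *Tcap* differed by -0.41 on the log2 scale (SE 0.145), and the gene was not called (edgeR adjusted p = 0.132; DESeq2 adjusted p = 0.057). Without MLPKO-cRADKO mouse 3, which was also the lowest mouse for *Ttn*, the log2 fold change was -0.27, and over all mice left out it ranged from -0.47 to -0.27. *Ankrd2* and *Tcap* were thus 2 of 5 members whose groups did not overlap, against 3.98% of all genes that were lower without overlap.

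Markers of cardiomyocytes and of other cell types were read beside these sarcomere genes. The summed normalized count of 8 cardiomyocyte markers ranged from 3118119 to 3531179.8 in MLPKO and from 2562490 to 3183169.7 in MLPKO-cRADKO, and the groups overlapped. Of the 8, edgeR called 1 lower, where 1.8% of all genes were called lower. This was *Tnnt2*, cardiac troponin T, which fell by 0.57 on the log2 scale (SE 0.0937, edgeR adjusted p = 0.0185). The other 7 had log2 fold changes from -0.30 for *Actc1* to 0.15 for *Atp2a2*. DESeq2 called 2 of the 8 lower (*Tnnt2* and *Myh6*), against 5.84% of all genes. The endothelial sum of 4 markers was 25160 to 28454 in MLPKO and 29130 to 34253 in MLPKO-cRADKO, without overlap of the groups. The macrophage sum of 5 markers was 1796 to 2472 and 2263 to 3856, the fibroblast sum of 6 markers was 45850 to 69928 and 36839 to 68000, and the smooth muscle sum of 4 markers was 3044 to 8579 and 5126 to 11304. All 4 endothelial and all 5 macrophage markers were higher at an unadjusted edgeR p under 0.05, against 1356 of 13453 genes. DESeq2 called 2 and 3 of them higher, against 512 of all genes, and edgeR called 0 of either list. Of 3 smooth muscle markers tested, *Acta2* (smooth muscle actin) was called, with a log2 fold change of 1.24 (SE 0.287, edgeR adjusted p = 0.0461), whereas *Myh11* had 0.0062 and *Cnn1* -2.17 (edgeR adjusted p = 0.988 and 0.103). *Acta2* was called in 4 of 10 fits with 1 mouse left out and missed the threshold with limma-voom (adjusted p = 0.0516) and with robust dispersion (adjusted p = 0.0665). The atrial sum of 3 markers was 114 to 258 in MLPKO and 92.6 to 1013 in MLPKO-cRADKO, where mouse 1 was the highest. The part of cell composition in the differences of the 5 genes was not tested.

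**Figure D2:**
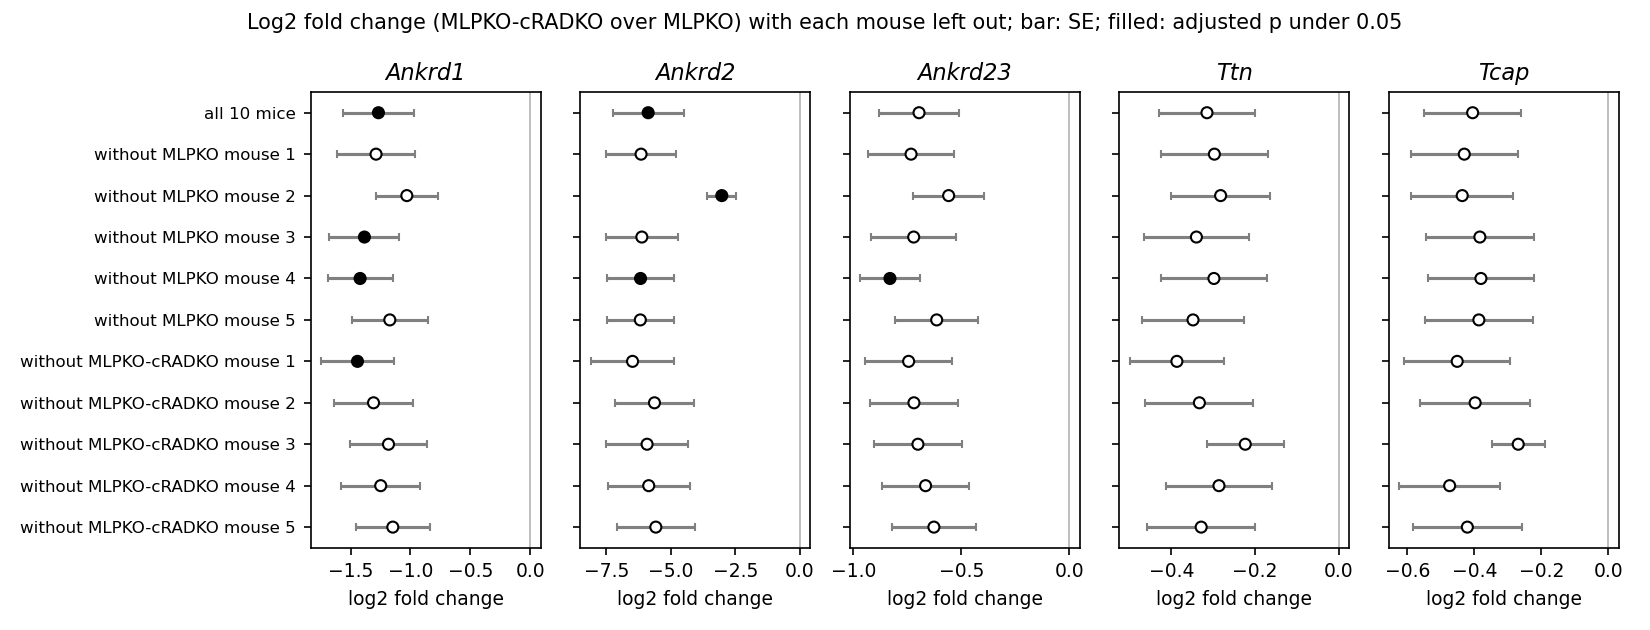
Log2 fold change of MLPKO-cRADKO over MLPKO (horizontal axes, a scale for each gene) with all 10 mice and with each mouse left out; bars are standard errors and filled points have an edgeR adjusted p under 0.05. All values are below 0, and *Ankrd2* moves from -5.87 to -3.02 when MLPKO mouse 2 is left out.

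Levels were compared between genes as CPM per kilobase of merged exon length, where CPM are normalized counts expressed relative to the common library size. *Tcap* had 1510 ± 110 (SD, n = 5) CPM per kilobase in MLPKO and 1140 ± 256 (SD, n = 5) in MLPKO-cRADKO. *Ankrd1* had 1433 ± 627 in MLPKO and 595 ± 183 in MLPKO-cRADKO (SD, n = 5 each). *Tcap* and *Ankrd1* overlapped in both groups, and *Ankrd1* exceeded *Tcap* in 2 MLPKO mice (2 and 5) and in 0 MLPKO-cRADKO mice. By the mean over all mice they ranked 18th and 25th of 13417 genes. With the length of the longest transcript instead, the order turned. The mean over all mice was then 1434 for *Ankrd1* (24th) and 1325 for *Tcap* (26th).

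On the scale of merged exon length *Ttn* followed with 91.2 ± 7.83 in MLPKO and 73.3 ± 12 in MLPKO-cRADKO (SD, n = 5 each). It ranked 257th, below *Tcap* and *Ankrd1* in all 10 mice. On the same scale *Ankrd23* had 8.27 ± 2.47 in MLPKO and 5.11 ± 0.632 in MLPKO-cRADKO (SD, n = 5 each). *Ankrd2* ranged from 2.39 to 140 in MLPKO and from 0.102 to 1.39 in MLPKO-cRADKO. *Ankrd2* exceeded *Ankrd23* in 1 MLPKO mouse (mouse 2) and in 0 MLPKO-cRADKO mice, so these neighbours overlapped in MLPKO and were separate in MLPKO-cRADKO.

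Parts of these genes overlap others. Of the merged exon bases of *Ankrd23*, 45.9% are shared on the same strand with *Gm42417*, which had 0 counts in all libraries, and 14.4% on the opposite strand with *Cnnm3*, which had 473 to 834 counts. *Ankrd1* shares 24.3% of its exon bases on the opposite strand with *Gm56671*, which had 29 to 99 counts. *Ttn* shares 0.947% and *Tcap* 0.317% on the opposite strand, and *Ankrd2* shares 0%. The settings of the counting for strand and for shared reads are not given in the sources used here. How reads of overlapping genes, on the same or the opposite strand, were counted is therefore not known, and the *Ankrd23* level is uncertain.

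Ratios between members within a library asked whether the 5 genes differed from each other in their change between genotypes, since library scaling cancels in a ratio. Each of the 10 pairs was compared with a two-sided exact permutation test over 252 splits of the mice, whose smallest p is 0.00794, and p was adjusted over the 10 pairs. The log2 ratio of *Ankrd2* to *Ttn* was lower in MLPKO-cRADKO, with a difference of -3.90, and so was that to *Tcap*, with a difference of -3.79 (exact permutation adjusted p = 0.0397 for each), without overlap of the groups. The log2 ratio of *Ankrd2* to *Ttn* was -9.92 ± 2.30 in MLPKO and -13.83 ± 1.35 in MLPKO-cRADKO (SD, 5 mice each). Without MLPKO mouse 2 the ratio to *Ttn* differed by -2.92 and that to *Tcap* by -2.74, with an exact permutation adjusted p of 0.0794 for each.

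Within the ankyrin repeat genes the differences were unequal. The log2 ratio of *Ankrd2* to *Ankrd23* was lower in MLPKO-cRADKO (difference -3.58), and so was that of *Ankrd1* to *Ankrd23* (difference -0.56; exact permutation adjusted p = 0.0476 for each). The log2 ratio of *Ankrd1* to *Ankrd23* was 6.75 ± 0.284 in MLPKO and 6.19 ± 0.306 in MLPKO-cRADKO (SD, 5 mice each), and the groups overlapped. The log2 ratio of *Ankrd1* to *Ankrd2* was higher by 3.02 in MLPKO-cRADKO (exact permutation adjusted p = 0.0476). With 1 mouse left out, *Ankrd1* to *Ankrd23* passed the threshold in 2 of 10 tests (differences from -0.67 to -0.47), the other pairs of ankyrin repeat genes in 4 of 10 each, and *Ankrd2* to *Ttn* or *Tcap* in 5 of 10 each.

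The other 5 pairs did not pass the adjusted threshold. The log2 ratio of *Ankrd1* to *Ttn* was -1.44 ± 0.635 in MLPKO and -2.32 ± 0.355 in MLPKO-cRADKO (SD, 5 mice each; exact permutation adjusted p = 0.0661), and that of *Ankrd1* to *Tcap* differed by -0.77 (exact permutation adjusted p = 0.113). *Ankrd23* differed by -0.32 relative to *Ttn* and by -0.21 relative to *Tcap* (exact permutation adjusted p = 0.288 and 0.516). *Ttn* to *Tcap* was 2.90 ± 0.211 in MLPKO and 3.01 ± 0.236 in MLPKO-cRADKO (SD, 5 mice each), a difference of 0.11 within the spread between mice (exact permutation adjusted p = 0.503).

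**Figure D3:**
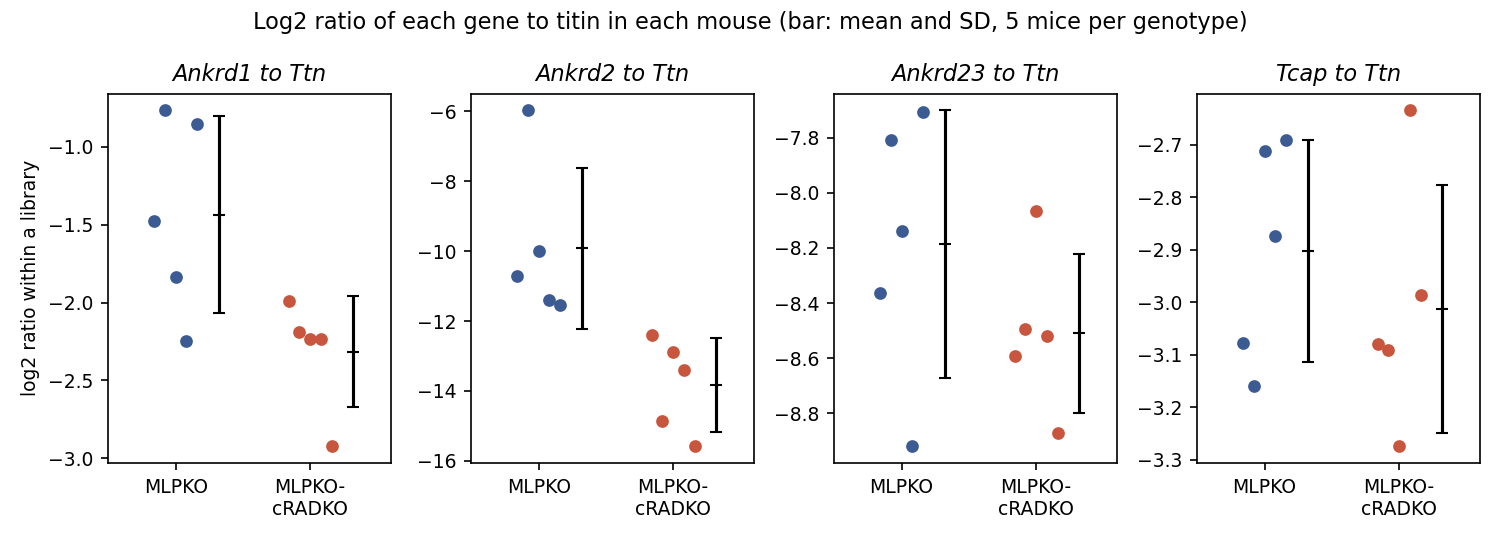
Log2 ratio of *Ankrd1*, *Ankrd2*, *Ankrd23* and *Tcap* to *Ttn* within a library (vertical axes) in each of 5 MLPKO and 5 MLPKO-cRADKO mice; bars are the mean and SD. The groups are separate for *Ankrd2* alone, with means of -9.92 and -13.83.

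Variation between mice of the same genotype was compared after the genotype mean of log2 CPM was removed. Of the 10 pairs of members, *Ankrd1* and *Ankrd23* alone passed the adjusted threshold, with a Pearson r of 0.881 over 10 mice (permutation adjusted p = 0.0045) and a Spearman rho of 0.842 (permutation adjusted p = 0.0373). Without MLPKO mice 2 and 4, the farthest from the median of *Ankrd1*, r was 0.79 over 8 mice. The r was 0.822 to 0.919 with each mouse left out, and its permutation adjusted p remained under the threshold in all 10. The next 3 pairs did not pass, with an r of 0.605 for *Ankrd1* and *Ankrd2*, 0.596 for *Ankrd2* and *Ankrd23*, and 0.594 for *Ttn* and *Tcap* (permutation adjusted p = 0.204 for each over 10 mice). The first fell to 0.224 and the second to 0.148 without the 2 farthest mice, MLPKO mouse 2 among them. The r of *Ttn* and *Tcap* was -0.50 without MLPKO-cRADKO mouse 3, so it rested on that mouse. Between *Ankrd23* and *Ttn* r was -0.00516 (permutation adjusted p = 0.988).

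**Figure D4:**
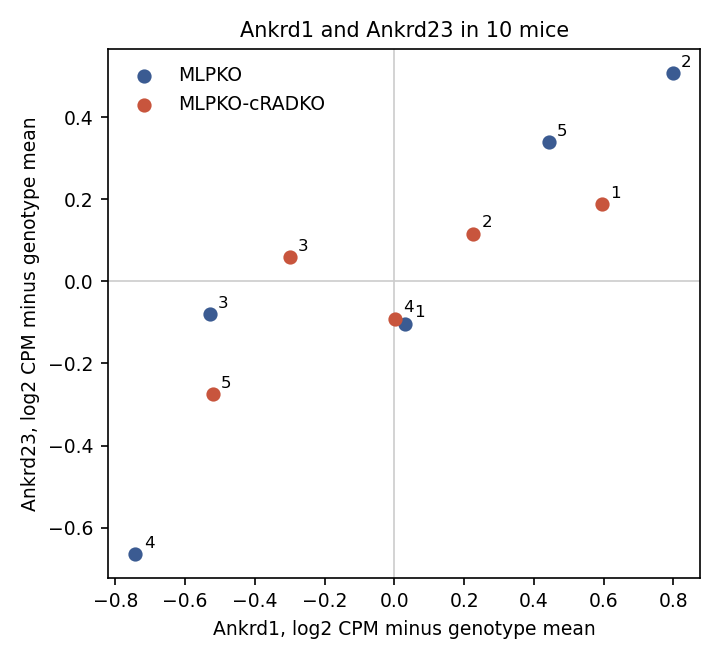
Log2 CPM of *Ankrd1* (horizontal axis) and *Ankrd23* (vertical axis), each minus the mean of its genotype, with 1 numbered point per mouse for 5 MLPKO and 5 MLPKO-cRADKO mice. MLPKO mouse 2 is highest and MLPKO mouse 4 lowest in both genes, and r is 0.881 over the 10 mice.

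The genes with the pattern most like each member over the 10 mice were listed by the same centred r, as a description without a test; they are the highest of all genes tested, and all values of a mouse share 1 library. For *Ankrd1* they were *Sorbs2*, which encodes an adaptor protein of the Z-disc and intercalated disc (r = 0.977), *Pdlim7*, a PDZ and LIM domain protein (r = 0.977), *Zcchc17*, *P4hb* and *Golga5* (r = 0.976, 0.973 and 0.965), and *Ankrd23* was 183rd. For *Ankrd23* they were *Rhoj*, the purinergic receptor gene *P2rx5*, the circadian regulator *Clock*, *Psmd7* and *Usp4* (r = 0.965, 0.962, 0.962, 0.961 and 0.960), and *Ankrd1* was 131st. For *Ankrd2* they were *Wdr19* (r = 0.986), *Myrfl*, *Sdc2*, *Las1l* and *Ccdc9b* (r = 0.939 to 0.935). Without MLPKO mouse 2 these were 0.983 for *Wdr19* and 0.813 to 0.858 for the other 4.

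For *Ttn* the most alike were the chromatin remodeller *Chd9* (r = 0.985), the phosphatase gene *Phlpp2* (r = 0.964), the zinc finger genes *Zfp266* and *Zfp758* (r = 0.944 and 0.928) and the cohesin gene *Stag1* (r = 0.926). For *Tcap* they were *Lclat1*, the immediate early gene *Nr4a1*, *Map7*, the tissue factor gene *F3* and the noncoding RNA *H19* (r = 0.967, 0.967, 0.965, 0.965 and 0.956). No gene was named for more than 1 of the 5 members.

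The genes around titin were then read from lists that follow its length in the sarcomere. Of 11 partners at the Z-disc, 2 fell and 0 rose, where 1.8% of all genes were called lower by edgeR, with a median log2 fold change of -0.45 against 0.011 over all genes tested. *Ldb3*, which encodes the Z-disc protein Cypher, had a mean normalized count of 68398 ± 10592 in MLPKO and 46558 ± 6035 in MLPKO-cRADKO (SD, n = 5 each), and fell by 0.55 on the log2 scale (edgeR adjusted p = 0.0334). *Obsl1*, the obscurin-like protein that binds titin at the M-band and was listed here with the Z-disc, fell by 0.45 (edgeR adjusted p = 0.0196). DESeq2 called 5 of the 11 lower, against 5.84% of all genes, and *Csrp3*, the gene labelled as knocked out in all mice, was 1 of these 5. With 1 mouse left out *Ldb3* was called in 4 of 10 fits and *Obsl1* in 8 of 10.

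Of 9 partners of the I-band, where the ankyrin repeat proteins bind, 1 fell and 0 rose (1.8% of all genes were called lower), with a median of -0.51. This was *Des*, desmin, the intermediate filament that links Z-discs and was listed here with the I-band. Its mean normalized count was 146042 ± 38210.1 in MLPKO and 85027 ± 7787 in MLPKO-cRADKO (SD, n = 5 each). *Des* fell by 0.78 on the log2 scale (SE 0.148, edgeR adjusted p = 0.0247) and was called in 4 of 10 fits with 1 mouse left out. Of 9 partners of the A-band and M-band, 2 fell and 0 rose, with a median of -0.27. *Trim54*, a muscle RING finger ubiquitin ligase, fell by 0.25 (edgeR adjusted p = 0.0389), and *Sqstm1*, the autophagy receptor p62 that takes part in titin kinase signalling, fell by 0.27 (edgeR adjusted p = 0.0427). Each of the pair was called in 2 of 10 fits with 1 mouse left out, and neither with upper quartile scaling, with library size only or without a filter on low counts, where the count of this list was 0. DESeq2 called 4 of the 9 I-band and 5 of the 9 A-band and M-band partners lower, against 5.84% of all genes.

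None of the 4 splicing factors known to act on titin was called by edgeR or DESeq2, where edgeR called 2.74% of all genes in either direction. At an unadjusted edgeR p under 0.05 there were 0. The log2 fold changes largest in size were -0.13 for *Rbm24* and 0.12 for *Ptbp1* (edgeR adjusted p = 0.435 and 0.51), and the list median was -0.04. Of 13 genes of the YAP and TEAD pathway, a route by which stretch reaches the nucleus, 0 were called by edgeR. DESeq2 called 1 lower, against 5.84% of all genes. At an unadjusted edgeR p under 0.05, 2 were lower and 1 was higher, against 11.5% lower and 1356 of 13453 genes higher. The list median was -0.02. The pathway targets *Ccn2* and *Ccn1* had log2 fold changes of -1.29 and -0.55 (edgeR adjusted p = 0.278 and 0.274), which were -0.19 and -0.18 without MLPKO mouse 2.

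Of 8 genes tested from the SRF and MRTF pathway, which couples actin dynamics to transcription, 2 fell and 0 rose (1.8% of all genes were called lower), with a median of -0.19. These counts depend on the choice of genes. *Cnn1* and *Tagln* stand both here and among the smooth muscle markers. *Acta2*, called higher (log2 fold change 1.24, edgeR adjusted p = 0.0461), stands among those markers alone. *Vcl*, vinculin of the costamere, fell by 0.45 (SE 0.0798, edgeR adjusted p = 0.0216), and *Acta1*, skeletal actin, fell by 1.52 (SE 0.362, edgeR adjusted p = 0.0492). *Acta1* narrowly missed the threshold with upper quartile scaling, the filterByExpr filter and Gm and Rik genes kept (adjusted p = 0.0503, 0.05002 and 0.0504) and missed it with robust dispersion (adjusted p = 0.0722), and each of these settings left 1 call in the list. Among 10 genes known to respond to stretch or load in the heart, 4 fell and 0 rose, with a median of -1.41, and 1 was called with robust dispersion. The study had drawn attention to some of these genes, *Acta1* and *Myh7* among them, in these samples, so this list is not independent evidence of its direction. Besides *Acta1* the 4 were *Myh7*, the slow myosin heavy chain (log2 fold change -1.23, edgeR adjusted p = 0.0104), *Xirp2*, which encodes the actin-binding Xin repeat protein of the intercalated disc (-2.04, edgeR adjusted p = 0.0324), and *Sprr1a* (-5.02, edgeR adjusted p = 0.0376). Of the genes not called, *Nppa* and *Nppb* had log2 fold changes of -2.05 and -1.02 (edgeR adjusted p = 0.124 and 0.241). *Tnc* was the 1 gene of the list with a higher value (0.87, edgeR adjusted p = 0.39).

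*Sprr1a*, a small proline-rich protein induced in stressed cardiomyocytes, was highest in MLPKO mouse 2, as *Ankrd2* was. DESeq2 gave *Sprr1a* no adjusted p, and its limma-voom adjusted p was 0.184. It ranged from 130 to 3638 normalized counts in MLPKO and from 5.61 to 54.4 in MLPKO-cRADKO, and without MLPKO mouse 2 its log2 fold change was -2.95 and that of *Xirp2* was -1.45 (edgeR adjusted p = 0.0148 and 0.0212). With 1 mouse left out *Myh7* was called in 10 of 10 fits, *Vcl* in 6, *Xirp2* in 4, *Sprr1a* in 3 and *Acta1* in 2.

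**Figure D5:**
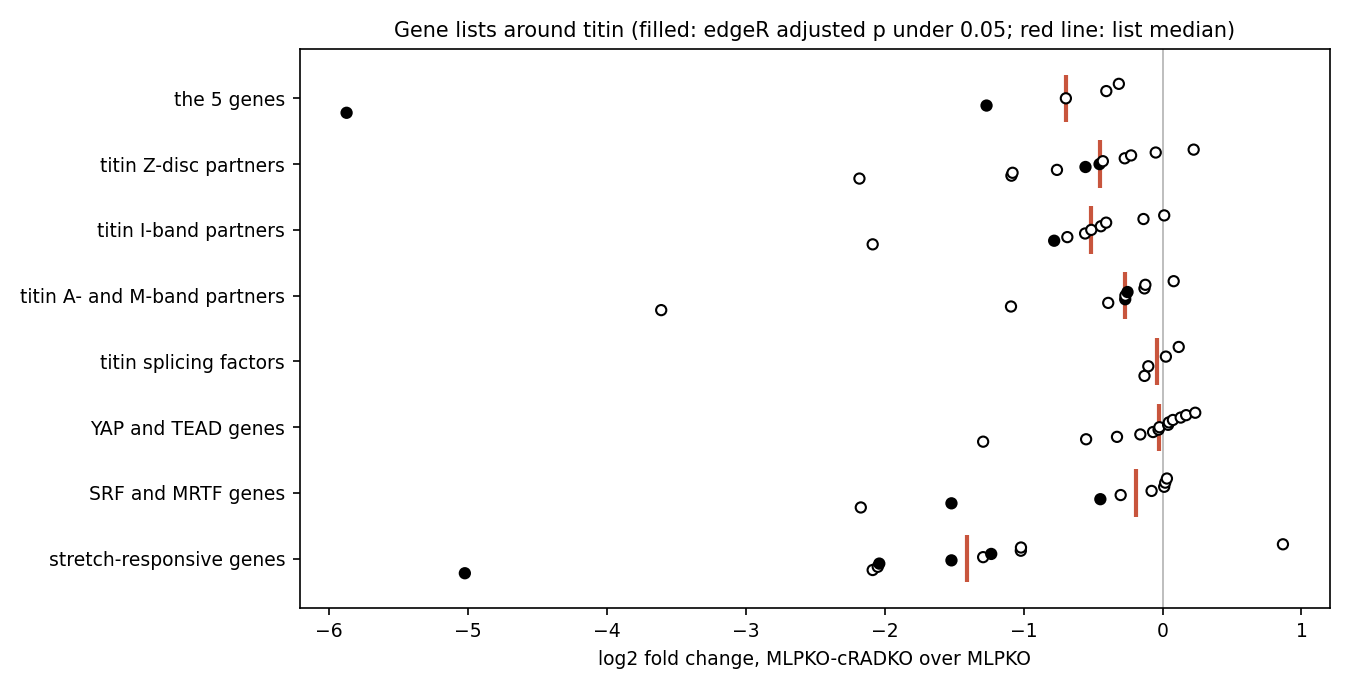
Log2 fold change of MLPKO-cRADKO over MLPKO (horizontal axis) for each tested gene of the 5 members and of 7 lists around titin, with 1 point per gene, filled where the edgeR adjusted p is under 0.05, and a red line at the list median. The medians run from -1.41 for stretch-responsive genes to -0.02 for YAP and TEAD genes, and *Ankrd2* lies farthest to the left at -5.87.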

How the data were processed

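Ventricular RNA of 5 MLPKO and 5 MLPKO-cRADKO mice was sequenced. The deposited values are raw counts per gene, made by the authors with featureCounts from STAR alignments on GRCm39 (settings for strand, read pairs and shared reads are not given in the sources used here). Of 60676 genes in the table, 3491 were blank and left out. As in the study, a gene was kept where 6 or more mice exceeded 10 counts, and names with Gm or Rik were removed, leaving 13453. Genotypes were compared with edgeR 4.0.16 (TMM, quasi-likelihood test, Benjamini-Hochberg adjustment) in R 4.3.3. The authors used DESeq2, run as an alternative (1.42.0) with limma-voom (limma 3.58.1). Log2 fold changes are MLPKO-cRADKO minus MLPKO.

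Ratios and correlations used log2 CPM with a prior count of 2, the latter with 100000 resamples. They were run in Python 3.11.15 (scipy 1.17.1, numpy 2.4.6, pandas 2.3.3), and plots drawn with matplotlib 3.10.9. Places, lengths and start sites came from GENCODE on GRCm39, which held 56629 of 57185 genes with values, and promoter letters from the GRCm39 genome. On simulated counts of 13453 genes with 200 changed by 1 on the log2 scale, edgeR recovered 150 with 5 false calls, DESeq2 170 with 33 and limma-voom 149 with 6.

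The members and lists were chosen with earlier results of these data known. Named genes were the members, list genes with an edgeR adjusted p under 0.05 or otherwise the 2 of largest change, the 5 most alike per member and overlapping genes. *Rrad*, the single markers and further list genes that edgeR did not call were named outside this rule after their values were seen. Mouse numbers belong to different animals, so no block was used. Alternatives were other scalings, filters, dispersion, halved counts, a block on mouse number and each mouse left out. The labels give 16 weeks and the study 3.5 months of age.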

Additional observations from a re-analysis of the deposited data

Results flagged for a closer look

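The normalized count of *Ankrd2* in MLPKO mouse 2 was 7719, and its gap to the next MLPKO mouse took 0.965 of the range of the group, above the critical value of 0.71 of Dixon's test for 5 samples. The same mouse stood apart in the log2 ratio of *Ankrd2* to *Ttn* (-5.97, gap 0.719 of the range) and in that of *Ankrd2* to *Tcap* (-2.81, gap 0.738 of the range). These 3 share 1 *Ankrd2* value. In MLPKO-cRADKO the lowest log2 ratio of *Ankrd1* to *Ttn* was -2.92, in mouse 5, with a gap of 0.74 of the range. There were 30 such tests, and chance passes about 1 in 20.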

How the results depend on the processing

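The 5 members had lower values in MLPKO-cRADKO under each of the 21 other settings of the fit that gave a value. DESeq2 called 1298 genes against 369, and the calls ran from 47 (without MLPKO mouse 5) to 826 (without MLPKO mouse 4). Calls were 242 lower and 127 higher, against 205 and 175 with upper quartile scaling and 168 and 182 with library size only, where the median of all genes was 0.04 and 0.07. The cause was not tested. The mouse numbers did not pair the mice (correlations of deviations from -0.0442 to 0.152), and a replicate block gave 281 calls and ended that of *Acta2* (adjusted p = 0.057). *Ankrd1* missed the threshold with limma-voom (-1.21), robust dispersion (-1.27) and the replicate block (-1.20), and ranged from -1.44 to -1.03 with 1 mouse left out. *Ankrd2* missed it with limma-voom (-4.27), robust dispersion (-5.87), halved counts (-5.87) and the replicate block (-4.25), and ranged from -6.48 to -3.02. *Ankrd23* passed it with DESeq2 (-0.70) and ranged from -0.83 to -0.56.

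With 1 mouse left out the ratio differences ranged from 2.20 to 3.58 (*Ankrd1* to *Ankrd2*), -0.67 to -0.47 (*Ankrd1* to *Ankrd23*), -1.08 to -0.71 (*Ankrd1* to *Ttn*), -4.11 to -2.69 (*Ankrd2* to *Ankrd23*), -4.31 to -2.92 (*Ankrd2* to *Ttn*) and -4.26 to -2.74 (*Ankrd2* to *Tcap*). Without centring on genotype r was 0.843 (*Ankrd1* and *Ankrd2*), 0.694 (*Ankrd1* and *Ttn*), 0.821 (*Ankrd2* and *Ankrd23*) and 0.777 (*Ttn* and *Tcap*), past the threshold, and 0.421 (*Ankrd2* and *Tcap*), 0.489 (*Ankrd23* and *Ttn*) and 0.374 (*Ankrd23* and *Tcap*), of the opposite sign; such r also holds the genotype difference. With 1 mouse left out r ranged from 0.277 to 0.817 (*Ankrd1* and *Ankrd2*), 0.248 to 0.858 (*Ankrd2* and *Ankrd23*), -0.36 to 0.213 (*Ankrd1* and *Tcap*), -0.0152 to 0.474 (*Ankrd2* and *Ttn*), -0.19 to 0.153 (*Ankrd23* and *Ttn*) and -0.50 to 0.743 (*Ttn* and *Tcap*). *Ankrd23* had 9.55 CPM per kilobase of its longest transcript and 6.69 of merged exons. Depth limits *Ankrd2* most, with counts from 6.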
